A study of Mus musculus with 19 samples.

Results

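The regions described here are 1629 autosomal stretches of mouse cardiomyocyte (CMC) DNA with peaks of 5-hydroxymethylcytosine (5-hmC) under pressure overload. They were called in the first replicate, with a call of the second replicate on them or close by and no call of another stage within 1 kb. They were chosen by their peak calls. A region is a peak of the first TAC list with a peak of the second TAC list no more than 1 kb away, edge to edge, and with no peak of the 6 embryonic, neonatal and adult lists within the same 1 kb. Of the 104477 autosomal peaks of TAC replicate 1, 1629 met the rule, or 1.56%, and the 8 lists together held 1000847 peaks. Because the calls themselves made the choice, the presence of these regions in TAC and their absence elsewhere is a description with no test.

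5-hmC was profiled by hMeDIP sequencing, in which sonicated DNA is precipitated with an antibody against 5-hmC, in CMCs isolated from male C57BL/6J mice. There were 4 points with 2 biological replicates each: embryos at E14.5, pups 1 or 2 days old, adults 2 months old, and adults 1 week after transverse aortic constriction (TAC), a knot around the aortic arch that loads the left ventricle with pressure and makes CMCs grow. The comparison point for TAC was the unoperated adult, since no peak list of a sham operation was used here. Adult CMCs were separated by sedimentation after perfusion of the left ventricle, and the study counted most but not all cells of its preparations as positive for sarcomeric actinin, so that other heart cells contribute some DNA. After TAC 104964 and 107329 peaks were called, in unoperated adults 104215 and 121214, in neonates 137172 and 153637 and in embryos 132610 and 139706. The lists give positions only, so the reads behind a peak are unknown, and a region without a call may still carry 5-hmC below the calling threshold.

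5-hmC is made from methylated cytosine, nearly always at a CpG, by the TET dioxygenases, and is both a step in the removal of DNA methylation and a mark that persists in cells that have stopped dividing. In heart muscle, as in neurons, it lies mainly over introns and exons of transcribed genes and at enhancers, and is scarce at active start sites. Pressure overload sets off growth signalling through calcineurin, calcium/calmodulin-dependent kinase and MAP kinases and turns CMCs toward a fetal pattern of expression, which is the setting in which regions that gain the mark were of interest.

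To show what such regions look like, 200 bases around the centre of 8 of them follow, read from the plus strand of GRCm38 (mm10), with each CpG, the site at which 5-hmC can lie, in capitals. They were picked by the number of CpG in those 200 bases, among the windows that could be printed, which hold no untranslated bases. The first 6 are the highest by that count on the heart genes discussed further on, and all 6 lie in introns.
Nfatc2, chr2:168491404-168491603: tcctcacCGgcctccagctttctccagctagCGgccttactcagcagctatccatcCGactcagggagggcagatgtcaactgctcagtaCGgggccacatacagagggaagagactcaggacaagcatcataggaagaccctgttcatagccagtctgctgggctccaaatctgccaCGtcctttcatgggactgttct
Ctnna3, chr10:64214081-64214280: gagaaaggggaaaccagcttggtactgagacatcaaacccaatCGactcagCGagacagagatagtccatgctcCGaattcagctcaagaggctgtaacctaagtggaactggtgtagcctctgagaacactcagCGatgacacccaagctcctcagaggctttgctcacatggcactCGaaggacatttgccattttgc
Cacna2d1, chr5:15991606-15991805: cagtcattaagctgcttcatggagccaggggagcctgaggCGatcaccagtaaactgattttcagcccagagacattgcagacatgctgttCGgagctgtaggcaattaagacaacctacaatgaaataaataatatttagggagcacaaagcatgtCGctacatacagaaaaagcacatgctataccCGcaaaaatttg
Pde3a, chr6:141263670-141263869: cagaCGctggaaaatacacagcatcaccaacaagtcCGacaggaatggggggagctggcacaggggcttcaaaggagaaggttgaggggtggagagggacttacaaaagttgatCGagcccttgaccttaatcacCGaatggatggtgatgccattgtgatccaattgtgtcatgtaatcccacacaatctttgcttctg
Esrrg, chr1:187965083-187965282: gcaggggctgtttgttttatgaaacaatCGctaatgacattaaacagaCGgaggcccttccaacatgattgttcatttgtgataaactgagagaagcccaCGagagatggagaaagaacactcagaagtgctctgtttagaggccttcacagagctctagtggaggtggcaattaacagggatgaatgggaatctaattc
Camk2d, chr3:126766363-126766562: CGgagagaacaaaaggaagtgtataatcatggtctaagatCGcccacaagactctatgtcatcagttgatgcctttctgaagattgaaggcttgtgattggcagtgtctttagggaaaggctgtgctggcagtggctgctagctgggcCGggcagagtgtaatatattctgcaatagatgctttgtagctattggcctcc
These windows hold 3 to 5 CpG. The last pair have the highest count of any window that could be picked, and both lie at the start of a gene, Slc7a5, a transporter of large neutral amino acids, and Oser1, an oxidative stress response gene.
Slc7a5, chr8:121907359-121907558: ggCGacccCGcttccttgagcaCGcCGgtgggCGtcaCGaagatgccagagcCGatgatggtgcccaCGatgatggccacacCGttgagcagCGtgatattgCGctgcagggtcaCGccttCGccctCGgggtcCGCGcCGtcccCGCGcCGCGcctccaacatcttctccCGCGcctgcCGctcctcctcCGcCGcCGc
Oser1, chr2:163418987-163419186: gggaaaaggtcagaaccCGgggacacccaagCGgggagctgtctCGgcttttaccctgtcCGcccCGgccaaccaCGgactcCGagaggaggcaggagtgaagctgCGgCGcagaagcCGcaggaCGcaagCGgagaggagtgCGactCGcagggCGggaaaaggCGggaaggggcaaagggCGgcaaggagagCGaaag
Here the same length holds 27 and 18 CpG. The first kind of sequence was the usual one: the median region had 6 CpG over its whole length, 31 regions had none, and 284 (17.4%) had 10 or more, against 44.2% of the other autosomal TAC replicate 1 peaks.

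The number of regions was compared with what chance position would give by placing each TAC replicate 1 peak at all allowed positions of its chromosome, which yields an exact expectation. Allowed positions were all those outside gaps of the assembly, so repeats and CpG-poor sequence counted as fully as the rest. Ratios to this expectation do not allow for where peaks can be called. Under such uniform placement 60.7% of the peaks would have no peak of another point near them. In the data 9951 did, or 9.52%. With both conditions applied, uniform placement would give 3321 regions, so the 1629 found were 0.491 times that number. TAC replicate 1 peaks thus lay mostly where embryonic, neonatal or adult CMCs also had peaks, and few were far enough away to qualify.

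Among the peaks that did lie away from all other points, the second TAC replicate was met more often than by position alone. A TAC replicate 2 peak was near 16.4% of the 9951, whereas 5.24% of the positions free of other points lay near one, a ratio of 3.12. With the replicates exchanged, 1525 regions were found where uniform placement gave 1421, and the ratio was 3.29. The same rule gave 2442 E14.5-only regions with a ratio of 4.43, 2551 neonatal-only regions with a ratio of 4.91 and 2606 adult-only regions with a ratio of 8.01. The TAC pair had the fewest regions and the lowest ratio of the 4 points.

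A further comparison kept TAC replicate 1 and let each other list in turn be its only neighbour. Paired with adult replicate 2 alone it gave 2506 regions and with adult replicate 1 alone 2046, both more than the 1629 shared with TAC replicate 2. The neonatal lists gave 1746 and 1108 and the E14.5 lists 1650 and 808. Of free peaks, 23.1% were near adult replicate 2 alone and 16.4% near TAC replicate 2 alone. Over all 28 pairs of lists, the TAC pair ranked 20th by the number of regions that only that pair held, below many pairs from unlike stages. By count, sharing a region with TAC replicate 2 was thus less frequent than with either adult list or the first E14.5 or neonatal list. It was more frequent than with the second E14.5 or neonatal list. The margin to the first E14.5 list was small, 16.4% against 16.5% of free peaks. Against free positions, the ratio was 3.12 for TAC replicate 2, 2.87 for E14.5 replicate 2 and 4.09 for neonatal replicate 2. The remaining lists had ratios from 4.67 (E14.5 replicate 1) to 8.08 (adult replicate 1). By that ratio, TAC replicate 2 stood above E14.5 replicate 2 only.

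**Figure D1:**
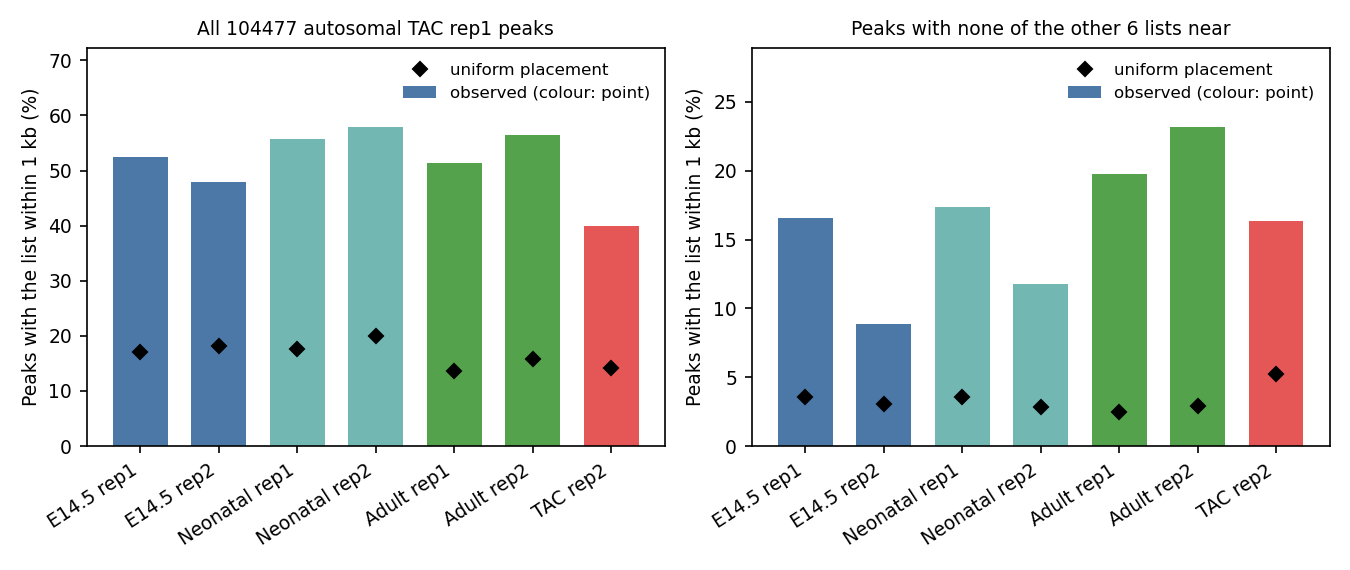
Share of TAC replicate 1 peaks (y axis, %) with a peak of each other list within 1 kb (x axis). The left panel takes all 104477 autosomal peaks and the right panel only those with none of the remaining 6 lists near. Bars are coloured by point and diamonds give uniform placement. All bars stand above their diamonds, and the TAC replicate 2 bar is the lowest on the left (40.0%) and lies below both adult bars on the right (16.4% against 19.7% and 23.1%).

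The peaks of TAC replicate 2 were centred beside those of TAC replicate 1, which touches every value that rests on both. For the 1629 regions the nearest TAC replicate 2 centre was a median of 615 bp away, 727 regions (44.6%) had it at 400 to 700 bp, and 54 (3.31%) had it within 150 bp. The partner lay at the higher coordinate for 819 regions, so neither side was preferred. Only 543 regions (33.3%) overlapped their partner by at least 1 bp, and the median gap was 82 bp. The other 40156 TAC replicate 1 peaks near TAC replicate 2 showed the same displacement, with a median of 620 bp and an overlap of 53.4%. The 1629 regions had 1612 distinct nearest partners, so few of them shared one.

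**Figure D2:**
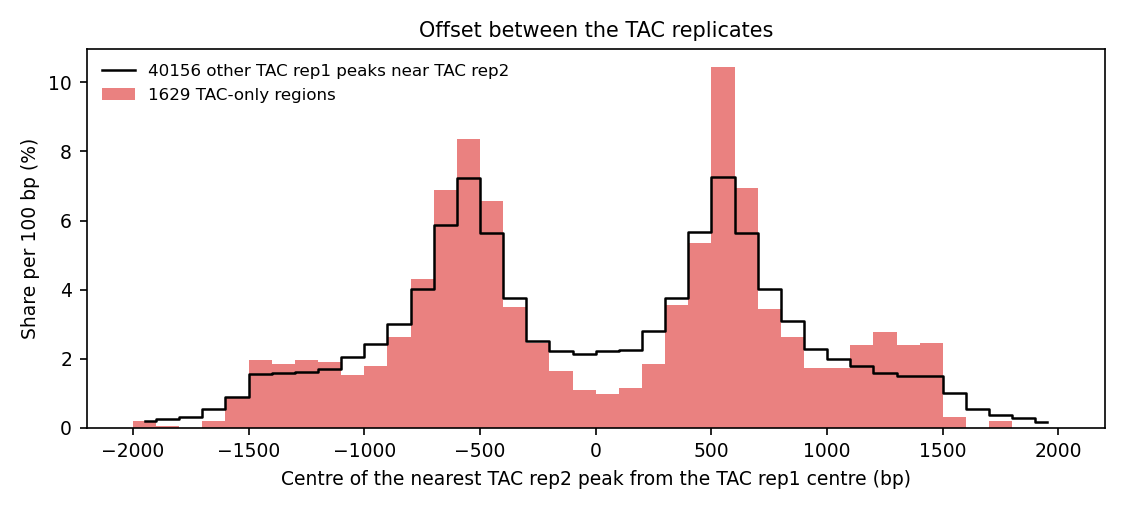
Position of the nearest TAC replicate 2 centre relative to the TAC replicate 1 centre (x axis, bp), as the share of peaks in each 100 bp (y axis, %). Filled bars are the 1629 regions and the line is the 40156 other shared peaks. Both have a maximum on either side at about 400 to 700 bp and a minimum at 0.

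The replicates also differed in the sequence at their peak centres. CpG density rose to 1.33 per 100 bp at the centres of the TAC-only regions and fell to 0.864 at 400 to 500 bp from them. The partner peaks in TAC replicate 2 had no such rise, with 0.963 at the centre and 1.07 at 300 to 400 bp. Their line was uneven throughout, and its highest value, 1.10, lay at 2000 to 2100 bp, so it does not locate the displacement. Over whole peaks the regions had 1.24 CpG per 100 bp, their partners 0.955, the remaining TAC replicate 1 peaks 1.60 and the autosomes 0.851. CpG density of a TAC-only region thus depended on which of the replicates supplied the coordinates.

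**Figure D3:**
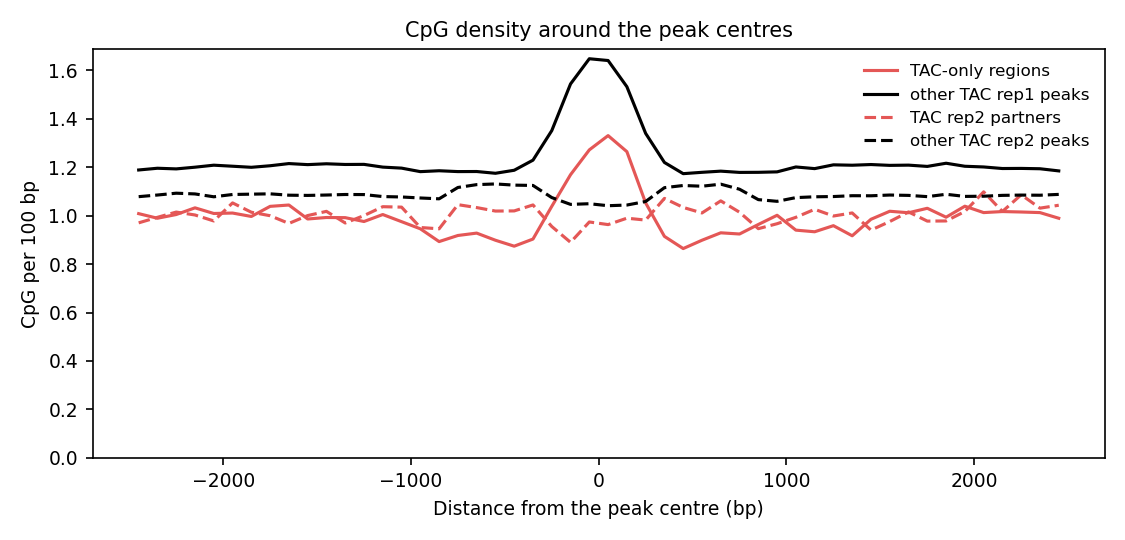
CpG per 100 bp (y axis) by distance from the peak centre (x axis, bp) in bins of 100 bp. Solid lines are TAC replicate 1 and dashed lines TAC replicate 2, red for the TAC-only regions and their partners and black for the remaining peaks. Both solid lines rise at the centre, to 1.33 for the regions, and neither dashed line does.

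Nor were the regions at the top of their list. The order of the deposited list is taken here as given, since the score column does not vary. The median region stood 73.4% of the way down the list and the median of the other peaks 49.4%. They were also narrow: 85.3% had the minimum width of 501 bp, as did 58.2% of the other peaks, and the means were 539 and 718 bp. The 8322 peaks of TAC replicate 1 that no other list shared at all were much the same, with a mean width of 527 bp, 1.30 CpG per 100 bp and a median place of 78.3%.

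The regions lay close to peaks of other stages even though the rule kept them more than 1 kb away. The median distance to the nearest embryonic, neonatal or adult peak was 2.23 kb, 733 regions (45.0%) had one at 1 to 2 kb, and 1284 (78.8%) within 5 kb. Of the positions that the rule leaves free, 49.4% are within 5 kb of such a peak, and of the free TAC replicate 1 peaks with no TAC replicate 2 peak, 74.9% were. The share of regions whose nearest peak came from a given list was set beside that list's share of the peaks of the 6 lists. For replicates 1 and 2, it was 15.3% against 16.8% and 17.5% against 17.6% at E14.5. In neonates it was 15.1% against 17.3% and 19.7% against 19.4%. In adults it was 13.7% against 13.3% and 18.7% against 15.5%. Adult replicate 2 was thus the neighbour more often than its size would give, and whether this belongs to the stage was not tested. At the 1 kb limit on other points, 143 members had their nearest such peak at 1001 to 1100 bp, and 154 TAC replicate 1 peaks with a TAC replicate 2 peak missed the rule by having one at 901 to 1000 bp. At the limit on TAC replicate 2, 65 members had a gap of 901 to 1000 bp and 61 otherwise qualifying peaks one of 1001 to 1100 bp. The more of the 6 lists of other points had a peak at a place, the more often the second TAC replicate did too, from 16.4% with none of them near to 63.9% with all 6.

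Most isolated was a region at chr4:156340911-156341411, 10.1 kb from the start of Vmn2r129, a vomeronasal receptor gene, with the nearest peak of another point 89.2 kb away. The next were in an intron of Sycp1, a meiotic synapsis protein, at 64.7 kb, and near Serpina1a, an alpha-1 antitrypsin, at 55.1 kb. Soft-masked bases, the repeats and low-complexity sequence marked in the reference, made up 35.3%, 92.2% and 61.7% of these 3. In the 129 regions more than 10 kb from any other point the soft-masked share was 28.7%, CpG density 0.681 per 100 bp and the gene body (GB) share 33.3%, against 20.8%, 1.43 and 56.9% in the 733 regions at 1 to 2 kb. Distance from other stages therefore went with fewer CpG, more repeats and fewer genes among the regions themselves.

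By place, 811 regions (49.8%) were centred in introns, 675 (41.4%) between genes, 56 (3.44%) in exons, 36 (2.21%) at start sites, 28 (1.72%) at transcript ends, 19 in 3′ UTRs and 4 in 5′ UTRs. The GB share, introns plus exons, was 53.2%, against 62.8% of the other TAC replicate 1 peaks and 39.8% of autosomal bases. The intergenic share was 41.4%, 31.8% and 56.9%, in that order. The partner peaks in TAC replicate 2 gave 52.3% GB, as did the rest of that list with 52.9%. The regions thus lay less often on GBs than the list they came from, and as often as the second TAC list as a whole. The 8322 TAC replicate 1 peaks that no other list shared gave 53.8% GB and 41.1% intergenic. The lower GB share was therefore not particular to the regions. E14.5-only, neonatal-only and adult-only regions had GB shares of 39.8%, 44.7% and 67.2%, so the TAC-only regions came between the neonatal and the adult ones.

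**Figure D4:**
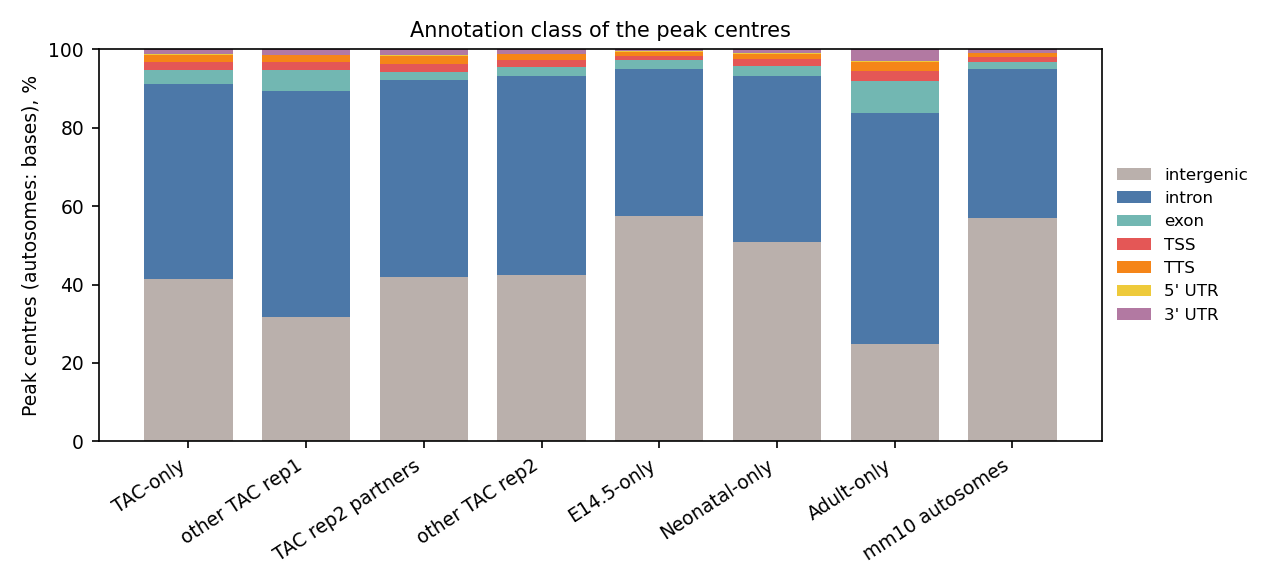
Share of peak centres (y axis, %) in each annotation class, stacked, for the TAC-only regions, the other peaks of both TAC lists, the partner peaks, the regions found by the same rule at the other points, and, by bases, the mm10 autosomes. The intergenic part is 41.4% for the TAC-only regions, 31.8% for the other TAC replicate 1 peaks and 56.9% for the autosomes.

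Whether TAC differed from the other stages in the place and sequence of its private peaks was tested over samples. For each of the 8 lists, the peaks with no peak of another point within 1 kb were taken, without asking for the second replicate, and TAC (n = 2) was compared with the other 6 lists by the exact two-sided permutation test over the 28 ways to take 2 lists, whose smallest p is 0.0357. These private sets were of unequal size. TAC replicate 2 had the largest, 21483 peaks or 20.1% of its autosomal list, and TAC replicate 1 the smallest, 9951. No list other than TAC replicate 2 exceeded 16560 private peaks or a share of 12.6%. Whether the size of a set affected its values was not tested. The GB share was 38.2% and 36.9% at E14.5, 38.8% and 41.8% in neonates, 58.1% and 59.2% in adults, and 53.7% and 38.7% after TAC. TAC replicate 1 thus lay near the adults and TAC replicate 2 among the younger stages. The means were 46.2% ± 10.6 (SD, n = 2) for TAC and 45.5% for the others, a difference of 0.714 percentage points (exact p = 0.929). The 45.5% pools stage means of 37.5% at E14.5, 40.3% in neonates and 58.6% in adults, and describes none of them. Here and for the other measures, the test takes the lists of unlike stages as exchangeable. It therefore cannot tell whether TAC resembles or differs from a single stage.

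CpG density of private peaks was 1.16 and 1.07 per 100 bp at E14.5, 0.956 and 0.946 in neonates, 1.35 and 1.49 in adults, and 1.29 and 0.745 after TAC. TAC replicate 2 had the lowest value of the 8 lists and TAC replicate 1 one of the higher ones. The means, 1.02 ± 0.388 (SD, n = 2) and 1.16, did not pass the exact permutation test (p = 0.5). The intergenic share (49.6% after TAC, 50.4% elsewhere), the soft-masked share (27.3% and 29.0%), the share within 1 kb of a start site (2.59% and 2.25%) and the mean width (530.0 and 533.4 bp) did not pass either, with exact p-values from 0.571 to 0.929. Adjusted over the 6 measures by Benjamini-Hochberg, all p-values of the permutation test were 0.929. For 5 of the 6 measures, width excepted, the SD of the TAC replicates was larger than the difference tested.

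**Figure D5:**
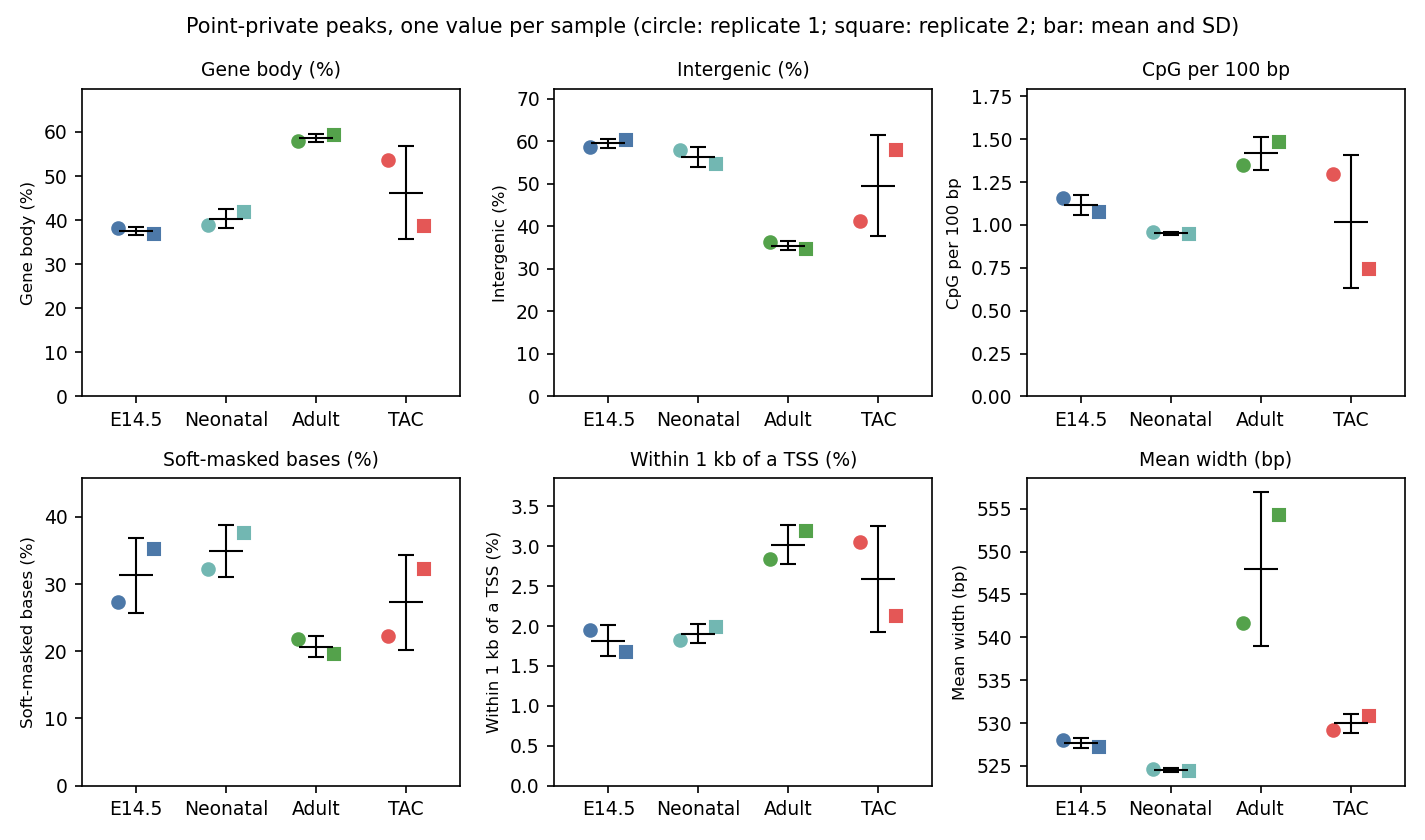
The 6 measures of the peaks private to one point, 1 value per list. Circles are replicate 1, squares replicate 2, and bars the mean and SD of 2. Both adult lists sit above the E14.5 and neonatal lists in GB share, and of the TAC lists one lies just below the adults, at 53.7%, and the other among the younger lists, at 38.7%. The axis of mean width does not start at 0.

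On chromosomes, the regions were spread thinly. Their density was 0.680 per Mb over the autosomes, and as a share of TAC replicate 1 peaks they ran from 1.07% to 1.96%. Across the 19 autosomes the density of regions and that of protein-coding genes had r = 0.216 and rho = 0.160, as a description. The median distance to the next region was 373 kb, and 64 regions had another within 10 kb. Of windows of 1 Mb, 1394 held none, 678 held 1 and 4 held 5, which was the highest number. Those 4 windows lay at chr1:55000001-56000000, near Plcl1 and Mob4, chr3:89000001-90000000, near Adar, an RNA-editing deaminase, chr6:91000001-92000000, near Wnt7a and Hdac11, and chr9:100000001-101000000, near Stag1, a cohesin subunit. A further 24 windows held 4. The first of them in genome order, chr1:38000001-39000000, spans Aff3, a transcription elongation factor with 2 regions, one of 67 genes with that number. No large cluster was found.

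Of 20021 autosomal protein-coding genes, 803 (4.01%) held at least 1 region on their span. They were long genes, with a median span of 92.0 kb against 16.9 kb of all genes, and 727 of them held a single region. Auts2, a regulator of transcription in neural development, held the most with 4, all in introns, among 148 peaks of TAC replicate 1 and 99 of TAC replicate 2. The adult lists had 147 and 170 peaks on the same gene, so the regions there lay within a dense pattern. The count of TAC replicate 2 was the lowest of the 8 lists. Those with 3 included Dock4, a Rac exchange factor, Nr3c2, the mineralocorticoid receptor, Rapgef4, the cAMP-activated exchange factor Epac2, Tenm2, a teneurin, Trim7, a ubiquitin ligase of the tripartite motif family, and Iqschfp. Each of these 7 genes, Auts2 included, had peaks in all 8 lists.

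Nr3c2, through which aldosterone acts on CMCs, had its 3 regions in introns at 111, 160 and 251 kb from the start site. On that gene, peaks numbered 19 and 18 at E14.5, 25 and 34 in neonates, 26 and 47 in adults, and 43 and 22 after TAC. The TAC values overlapped those of the other points. Trim7 was the densest, with 12.0 regions per 100 kb of its 25.1 kb span: 3 regions lay at 1.89, 3.11 and 4.79 kb from a start site, where the other points had no peak within 1.63 kb. Trim7 had 1 and 2 peaks at E14.5, 5 and 3 in neonates, 2 and 3 in adults, and 7 and 3 after TAC, so TAC replicate 1 was above all other lists and TAC replicate 2 within them.

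The genes of heart muscle were followed by role, in lists whose share of genes with a region is given beside the 4.01% of all genes and whose regions are given beside the 1.32% of TAC replicate 1 peaks on gene spans. Genes of hypertrophic signalling held regions in 9 of 39 (Fhl1, on the X chromosome, was not matched), with 10 regions among 829 peaks (1.21%). Their median span was 74.2 kb, and the share of peaks was near that of all genes. Hdac9, a class IIa histone deacetylase that restrains MEF2, had 2 intronic regions. Nfatc2, a transcription factor activated by calcineurin, had 1 region of 501 bp with 6 CpG that overlapped its TAC replicate 2 partner by 131 bp. The nearest peaks of the other points lay 8.41 and 1.95 kb away at E14.5, 1.99 and 2.03 kb in neonates, and 3.84 and 6.56 kb in adults. On the whole gene, peaks numbered 29 and 28 at E14.5, 29 and 25 in neonates, 27 and 23 in adults, and 33 and 23 after TAC, so the groups overlapped.

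Camk2d, the main calcium/calmodulin-dependent kinase of the heart, held 1 region of 626 bp, with the nearest adult peaks at 2.40 and 1.83 kb. Peaks on the gene numbered 48 and 49 in adults and 44 and 42 after TAC. Akap6, a nuclear envelope anchor of protein kinase A, and Pde3a, a phosphodiesterase of cAMP, held 1 each.

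Calcium handling and channel genes held regions in 3 of 20, with 3 of 455 peaks (0.659%). These were Cacna1c, the pore of the L-type calcium channel, in a 3′ UTR, Cacna2d1, its auxiliary subunit, and Trdn, triadin of the calcium release unit. The Trdn region was the most isolated of the 3, with its nearest peak of another point 6.36 kb away at E14.5 and the adult peaks 67.9 and 12.9 kb away. Sarcomere and Z-disc genes held a region in 1 of 28 although they were densely marked, with 164 TAC replicate 1 peaks per Mb against 71.3 for all genes. That region was in an intron of Xirp2, an actin-binding protein of the intercalated disc and Z-disc, and was 1 of 254 peaks (0.394%). Peaks on Xirp2 numbered 3 and 3 at E14.5, 4 and 3 in neonates, 7 and 6 in adults, and 9 and 7 after TAC.

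Genes of the intercalated disc and costamere held regions in 3 of 19, with 5 of 304 peaks (1.64%). Ctnna3, alpha-T-catenin, and Sgcd, delta-sarcoglycan, had 2 each, and Lama2, a laminin of muscle basement membrane, had 1, whose nearest peak of another point was 4.16 kb away in adult replicate 2. Cardiac transcription factors held regions in 3 of 15, with 3 of 177 peaks (1.69%). The region of Prox1, a homeobox factor, was centred 369 bp from its start site with 42 CpG and lay wholly within its TAC replicate 2 partner, while those of Meis1 and Tead1 were intronic. Energy metabolism held regions in 2 of 24, in Esrrg, an estrogen-related receptor that drives oxidative genes, and in Hadhb, a subunit of the mitochondrial trifunctional protein of fatty acid oxidation, with 2 of 236 peaks (0.847%). None of the 7 genes that write, oxidise or remove DNA methylation held a region among their 74 TAC replicate 1 peaks.

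Extracellular matrix and TGF-beta genes held regions in 2 of 21, with 2 of 179 peaks (1.12%). Fbn1, fibrillin, had 1 in an intron at 1.02 kb from an adult peak. Lox, the lysyl oxidase that cross-links collagen and elastin, was unlike the other genes of these lists. It had 0 peaks in all 6 embryonic, neonatal and adult lists and 1 in each TAC list. Its region, chr18:52528067-52528567, was centred in an exon 1.40 kb from the start site, had 16 CpG and overlapped its partner by 203 bp. The nearest peak of any other point was 27.8 kb away, in neonatal replicate 2, and the adult ones were 29.9 and 38.7 kb away.

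Lox is best known as a product of fibroblasts, and the markers of other heart cells were therefore counted. None of the 8 fibroblast, 10 endothelial, 7 immune or 7 smooth muscle and pericyte genes held a TAC-only region. These lists held only 1, 67, 4 and 22 TAC replicate 1 peaks, in that order, and over all gene spans 1.32% of such peaks are regions. With so few peaks, a count of 0 cannot set these lists apart from other genes. Fibroblast genes carried 1 TAC replicate 1 peak and 3 TAC replicate 2 peaks over their whole span, or 5.44 and 16.3 per Mb, and immune genes 12.2 and 18.3, both far below the 71.3 per Mb of all genes in TAC replicate 1. Endothelial genes had 70.1 and 82.7 per Mb and smooth muscle and pericyte genes 86.4 in both. The part of such cells in the regions was not tested.

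Of the 803 genes with a region, 23 had no peak of any other point on their span, and 51 (6.35%) had no adult peak. The matching shares over all genes with a TAC replicate 1 peak were not computed, so these counts cannot be called high or low. The 23 were chosen after their values were seen, and most were short genes, on which few peaks fit. On the shortest of them the rule itself leaves no room for a peak of another point. Besides Lox they included Psmb10, an immunoproteasome subunit, Selenop, the selenium carrier of plasma, Rnaseh1, which removes RNA from DNA hybrids, Tsn, translin, Ei24, an autophagy protein, Nup43, a nuclear pore subunit, and Npm2, a histone chaperone of the oocyte. In 18 of the 23 a TAC replicate 2 peak was also centred on the gene. Among the longer genes without an adult peak were Snrpn, the imprinted splicing factor gene, with 5 to 7 peaks in each E14.5 and neonatal list, Ankrd31 and Sycp1, both meiotic, Mre11a, a nuclease of double-strand break repair, and Canx, the chaperone calnexin.

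At start sites, 57 regions (3.50%) were centred within 1 kb of one, against 2.99% of the other TAC replicate 1 peaks. The nearest was 19 bp from the start of Ebi3, a subunit of interleukins 27 and 35, followed by Glyctk, glycerate kinase, at 31 bp, Nsun7 at 49 bp and Robo2, a receptor for Slit guidance cues, at 53 bp. Then came Cdpf1, Ep400, a chromatin remodeller, Inhba, the activin A subunit, at 150 bp, Cstdc1, Atp8b4 and Tead4, a factor of the Hippo pathway, at 209 bp. The 36 regions of the start site class had 2.94 CpG per 100 bp, the 56 exonic ones 2.20, the 811 intronic ones 1.24 and the 675 intergenic ones 1.05.

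At the other extreme, 411 regions (25.2%) lay more than 100 kb from any protein-coding start site, against 19.5% of the other peaks. The farthest was 1990 kb from Hace1, and the next were 1956 kb from Celf4, 1837 kb from Cntnap5a and 1426 kb from Ralyl. These 4 regions had 1 to 5 CpG each. The widest region, 2738 bp in an intron of Fblim1, migfilin of cell adhesions, had 36 CpG and was 58.5% soft-masked. It was followed by regions of 1697 bp at the start of Nrf1, a factor of mitochondrial biogenesis, 1680 bp near Gucd1, 1644 bp in Slc22a23 and 1477 bp in Lhpp.

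Sites of transcription factors known from the hypertrophic heart were searched on both strands in the 500 bases around each centre. GATA sites, written AGATAA, were in 24.9% of the regions and 22.4% of the other TAC replicate 1 peaks. TEAD sites, GGAATG, were in 28.7% and 27.7%, AP-1 sites, TGANTCA, in 237 of the 1629 regions and 13.5% of the other peaks, and E-boxes, CACGTG, in 7.73% and 9.78%. MEF2 sites were in 0.614% and 0.659% and CArG boxes of serum response factor in 2.33% and 2.19%. Around the TAC replicate 2 centres, partners and other peaks of that list had GATA sites in 27.0% and 26.3% and TEAD sites in 23.9% and 24.7%. There AP-1 sites were in 14.1% of both, E-boxes in 5.23% and 5.92%, MEF2 sites in 1.02% and 1.10% and CArG boxes in 2.46% and 2.62%. For TEAD sites and CArG boxes the direction thus changed with the replicate. A match is a run of letters and no record of binding.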

How the data were processed

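hMeDIP peak lists of 8 samples were used; the input and sh-control libraries of the series were not analysed here. Per the labels and the study's methods, the authors aligned reads with BWA 0.7.4-r385 to mm10, filtered them with Picard MarkDuplicates and by mapping quality, and called peaks with HOMER, separately in each replicate and against input. The deposited files give positions and a score column that holds 1 for each peak, so depth is unknown and no interval that needs it is given. Removal of reads with low mapping quality lowers calls over repeats.

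Gaps between peaks were counted edge to edge on the 19 autosomes. Classes followed the peak centre, with GRCm38.p6 and 43783 curated RefSeq transcripts, in HOMER's order of priority, a start site class reaching from 1 kb before to 100 bp after the TSS. Sequences and soft-masking came from the RefSeq assembly. Code was tested on simulated data. Python 3.11.15, numpy 2.4.6 and scipy 1.17.1 were used. Samples were grouped by point, and tests were exact permutation tests over samples.

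The regions and lists were chosen with earlier results of these data known. Named genes were, of each list, up to 6 with regions, the 10 with the most regions, the densest of those with 3 or more, the 10 with the nearest start sites, and the regions that were farthest, widest or in the fullest windows. Others were named after their values were seen. A few genes that the rule selects are not reported here, and no sequence was taken from chromosome 18. Alternatives were other gaps, centres, TAC replicate 2 as anchor, thinned lists, base pairs, wider gene spans, each replicate left out and a replicate block.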

Additional observations from a re-analysis of the deposited data

How the results depend on the processing

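The number of regions ran from 1218 with a gap of 2 kb to 2286 with centres at most 1 kb apart, through 1368 for overlap, 2045 for 500 bp and 2146 for lists thinned to the shortest. Leaving out 1 list at a time gave 1857 to 21483, the ends being the lists without E14.5 replicate 2 and without TAC replicate 1. Without TAC replicate 2 there were 9951, and without adult replicate 2 2529. The ratio to uniform placement was 2.51 for overlap, 3.61 for 500 bp, 2.74 for 2 kb and 3.29 when anchored on TAC replicate 2. The GB share was 59.0%, 52.3% and 53.0% for overlap, 2 kb and that anchor, 53.8% by base pair, and 51.0% to 58.2% without single lists. Anchored on TAC replicate 2, CpG density was 0.957 per 100 bp and the soft-masked share 28.2%. Genes with a region numbered 1216 with 10 kb added on each side and 3580 without TAC replicate 2. The cause of these shifts was not tested.

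No permutation test passed under any of 78 alternatives, with p from 0.143, which is the smallest that 1 TAC list allows. The smallest that the replicate block allows is 0.0625. Alternatives of these 2 kinds could therefore not have passed whatever their values. Less the value of all peaks in the same list, the differences turned to -0.728 points for GB and 1.03 for intergenic shares and to 66.0 bp for width. Without single lists they ran from -8.64 to 7.88 (GB), -8.98 to 9.68 (intergenic), -0.456 to 0.139 (CpG), -6.51 to 4.12 (soft-masked), -0.203 to 0.829 (start sites) and -10.8 to 4.86 bp (width), so their signs rest on single lists. With the replicate block, p was 0.938 for GB and for intergenic shares, 0.5 for CpG, 0.75 for soft-masking, 0.562 for start sites and 0.875 for width, with differences of 0.714, -0.820, -0.142, -1.71, 0.341 and -3.39 as without it. The differences of replicate 1 from 2 in peaks per 1 Mb window correlated between points with r from -0.104 to 0.403. Of the 6 pairs of points, 4 were above 0.1, the highest being E14.5 with TAC (0.403) and E14.5 with neonates (0.393). Lists with the same replicate number thus deviated together at some points. The replicate block allows for this, and the main test, which treats the lists as exchangeable, does not.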

Other observations

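Outside the autosomes, 3 of 475 X-linked and 0 of 12 Y-linked peaks of TAC replicate 1 met the same rule.

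Among the regions, the 285 listed among the first 50% of TAC replicate 1 peaks were wider, with a mean of 669 bp against 511 bp, had 1.43 against 1.19 CpG per 100 bp, and had a GB share of 61.1% against 51.6% among the 1344 listed later. The 197 regions with at least 50% of their bases soft-masked had a GB share of 44.7%, and the 117 without any soft-masked base 68.4%. The 543 regions that overlapped a TAC replicate 2 peak, the 753 with a gap of up to 500 bp and the 333 with a wider gap had GB shares of 53.6%, 50.5% and 58.9% and CpG densities of 1.24, 1.21 and 1.34 per 100 bp.

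The largest number of regions that any pair of lists held alone was 12438, shared by E14.5 replicate 2 and neonatal replicate 2. E14.5 replicate 1 and neonatal replicate 1 followed with 5393. Both pairs join samples of unlike stage with the same replicate number, and the third, 2606, was the adult pair.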
